A study of Mus musculus with 8 samples.

Results

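The genes described here are 9 transcription factors of the uterine stroma that are known from work on receptivity and decidualization: Hand2, Msx1, Msx2, Gata2, Zbtb16, Cebpb, Foxo1, Tcf21 and Wt1. They were taken by symbol from the deposited count tables, and all 9 were found among the 23420 gene symbols listed. All 9 also passed the filter on low counts that left 14598 genes for testing. The study sequenced polyadenylated RNA from uterine stromal cells of mice in 8 libraries, all labelled day 3. In 4 libraries the genotype label is Erbb3f/f, which in mouse notation stands for a pair of Erbb3 alleles flanked by recombination sites, and in 4 it is Erbb3d/d, the same alleles after deletion. The labels give no treatment, strain or age beyond day 3, do not name the Cre line or the cells in which it is active, and do not say what day 3 is counted from or whether animals were pooled. The series title places Erbb3 of the stroma in the shaping of uterine glands, and the comparison of the labels asks which stromal transcripts differ.

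In the mouse uterus, progesterone acting through its receptor prepares the stroma for the embryo and restrains the oestrogen response of the epithelium. Part of that work is carried by transcription factors. Hand2 is a basic helix-loop-helix factor induced by progesterone that limits fibroblast growth factor output of the stroma. The homeobox factors Msx1 and Msx2 are needed, redundantly, for the epithelium to accept the embryo, and are made in both epithelium and stroma. Gata2 acts upstream of the progesterone receptor, and Zbtb16 (also called PLZF) is a zinc finger repressor induced by progesterone and by glucocorticoids. Cebpb and Foxo1 act when stromal cells turn into decidual cells. Tcf21 and Wt1 mark mesenchyme of the urogenital tract, and Wt1 is also a marker of mesothelium.

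Start-site sequences are shown for Msx1 and Msx2, the related pair whose means were both higher in Erbb3d/d, and for Hand2, whose mean was lower. Each window runs from 250 bases before to 50 bases after the annotated start, 5′ to 3′ on the strand of the gene, and comes from RefSeq on GRCm38.p6. Capitals mark CCAAT boxes (CCAAT) and GC boxes (GGGCGG) on either strand.

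Msx1, chr5:37824536-37824835, minus strand: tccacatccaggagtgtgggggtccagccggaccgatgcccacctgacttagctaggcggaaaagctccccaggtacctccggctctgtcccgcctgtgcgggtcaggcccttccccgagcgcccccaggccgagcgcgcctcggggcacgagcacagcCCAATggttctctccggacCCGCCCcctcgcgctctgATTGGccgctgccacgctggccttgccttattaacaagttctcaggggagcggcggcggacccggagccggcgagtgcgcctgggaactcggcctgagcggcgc

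Msx2, chr13:53472731-53473030, minus strand: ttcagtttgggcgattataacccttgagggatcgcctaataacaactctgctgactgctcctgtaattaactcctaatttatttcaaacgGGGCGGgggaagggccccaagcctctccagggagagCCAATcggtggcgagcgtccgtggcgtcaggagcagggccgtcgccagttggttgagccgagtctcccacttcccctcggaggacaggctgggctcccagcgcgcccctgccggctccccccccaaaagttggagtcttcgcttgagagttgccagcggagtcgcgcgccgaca

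Hand2, chr8:57320733-57321032, plus strand: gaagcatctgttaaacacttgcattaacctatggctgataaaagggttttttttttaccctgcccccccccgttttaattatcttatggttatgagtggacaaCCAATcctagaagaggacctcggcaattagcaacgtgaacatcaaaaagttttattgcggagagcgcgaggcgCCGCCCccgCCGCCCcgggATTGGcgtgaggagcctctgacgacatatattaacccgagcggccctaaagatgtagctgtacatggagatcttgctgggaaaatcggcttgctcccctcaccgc

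A window was found for 7 of the 9 factors, with 2 for Gata2, and not for Zbtb16 and Wt1. The Msx1 window has 2 CCAAT boxes and 1 GC box, the Msx2 window has 1 of each, and the Hand2 window has 2 of each. Shares are given beside those over all 32817 windows of this length. A GC box was found in 7 of the 8 windows of these factors and in 35.6% of all windows, and a CCAAT box in 5 of the 8 and in 37.4% of all. The homeobox core TAATTA was in the windows of Msx2 and Hand2 and in 5.3% of all windows, and the GATA letters AGATAA were in those of Hand2 and Tcf21 and in 11.2% of all. E-boxes (CANNTG), the kind of site that Hand2 and Tcf21 bind, were in 5 of the 8 windows and in 72.3% of all. The forkhead letters TGTTTAC, the C/EBP letters TTNNGCAA and the progesterone receptor letters TGTTCT were in 0 of the 8 windows, against 3.6%, 10.8% and 19.0% of all. All motifs were sought on both strands, and a match of letters is not a binding site. The 8 windows, which count Gata2 at 2 starts, had 50.3% to 80.7% G or C bases, beside a median of 52.7% over all windows. The shares were not matched for base composition, so they cannot be read as a property of these factors.

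Before the factors are compared, the libraries need a short description. Reads assigned to genes numbered 8578575 to 12854367 per library. Erbb3 itself had 7.40 to 12.3 CPM (reads per 1000000 reads in genes, after scaling by TMM, the trimmed mean of M values) in Erbb3f/f and 7.37 to 17.7 CPM in Erbb3d/d, and its mean was higher under the Erbb3d/d label (log2 fold change 0.53, SE 0.28; edgeR's quasi-likelihood test, adjusted p = 0.485). A count over the whole gene cannot show the loss of single exons, and every direction below follows the labels only. On the first principal component, which held 38% of the variance, Erbb3d/d replicates 3 and 4 scored 36.2 and 44.95, replicate 1 scored 10.6, and replicate 2 scored -18.2, inside the Erbb3f/f range of -29.7 to -3.31. The 10 stromal markers were abundant in every library, with summed levels of 11251 to 14898 CPM in Erbb3f/f and 10436 to 14223 CPM in Erbb3d/d. Of these markers, 4 of the 10 had a higher mean in Erbb3d/d. In edgeR's test 3 of the 10 had an unadjusted p under 0.05, all lower in Erbb3d/d, beside 11.6% of all genes. Pdgfra (log2 fold change -0.56) and Vim (-0.47), named after their values were seen, were lower without overlap, beside 5.04% of all genes without overlap in either direction. All 15 epithelial markers were detected too, with sums of 1049 to 1714 CPM in Erbb3f/f and 1580 to 2602 CPM in Erbb3d/d. A positive log2 fold change was found for 12 of the 15, beside 7000 of the 14598 genes tested. In edgeR's test 11 of the 15 had an unadjusted p under 0.05, all higher in Erbb3d/d. All 9 smooth muscle markers had a positive log2 fold change, with sums of 828 to 1722 CPM against 1673 to 3982 CPM. Each of these 9 had an unadjusted p under 0.05 in that test, beside 11.6% of all genes. After adjustment 0 markers of either list passed. In RNA from many cells together, more RNA per cell and more cells of a type cannot be told apart.

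None of the 9 factors passed the test. By edgeR's quasi-likelihood test 0 of the 9 reached an adjusted p under 0.05, and the same held for 0% of the 14598 genes tested, while at an unadjusted p under 0.05 there were 3 of the 9 (Msx1, Msx2 and Foxo1), beside 11.6% of all genes. All 3 were higher in Erbb3d/d, beside 6.64% of all genes that were higher at that p. The log2 fold changes of the 9 ran from -0.88 for Zbtb16 to 1.56 for Msx2, with 4 above and 5 below 0 and a median of -0.05, beside -0.01 over all genes. Only Msx2 had its 4 Erbb3d/d values all above its 4 Erbb3f/f values. Such separation, in either direction, was seen for 5.04% of all genes, and in this direction for 2.56%. DESeq2, run beside edgeR, called 1.62% of its genes and 1 of the 9, again Msx2.

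**Figure D1:**
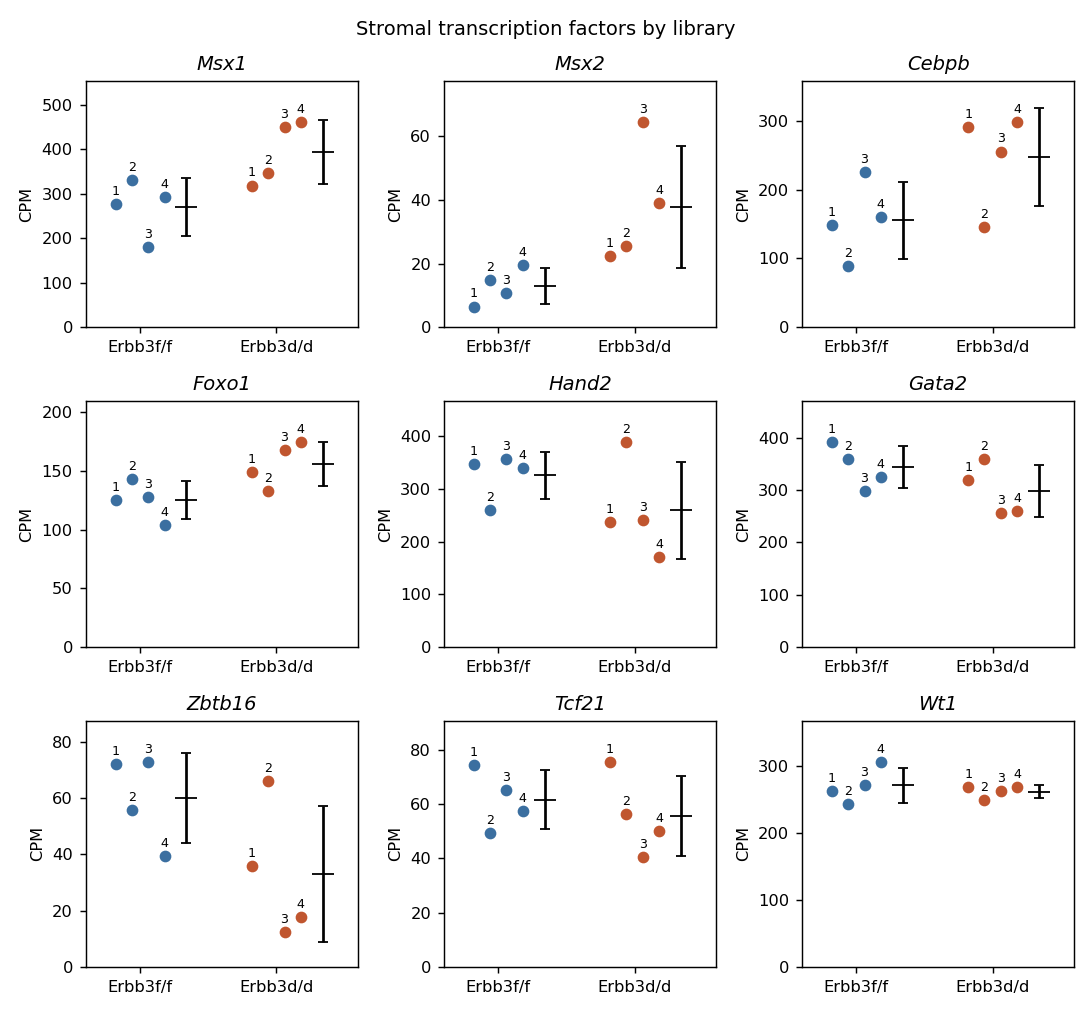
CPM of each of the 9 factors in every library (vertical axis from 0, points numbered by replicate), Erbb3f/f in blue and Erbb3d/d in orange, with the mean and SD (n = 4) as black bars. Msx2 is the factor whose groups do not overlap, and Zbtb16 in Erbb3d/d spreads from 12.4 to 66.1 CPM.

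Msx2, a homeobox repressor that also answers to BMP signals in many tissues, lies on chromosome 13 at 53466884 to 53473074 (GRCm38, minus strand, 2 exons). Counts of 67, 142, 135 and 174 reads were found for Erbb3f/f replicates 1 to 4, or 6.53, 14.9, 10.6 and 19.7 CPM. In Erbb3d/d replicates 1 to 4 it had 228, 218, 817 and 444 reads, or 22.4, 25.4, 64.4 and 39.0 CPM. Every Erbb3d/d library was above every Erbb3f/f library, and Erbb3d/d replicate 3 was the highest. The means were 12.9 ± 5.65 and 37.8 ± 19.1 CPM (SD, n = 4 each), a 2.95-fold difference. The log2 fold change was 1.56 (SE 0.41, 95% interval 0.64 to 2.48), and edgeR's adjusted p was 0.279. DESeq2 gave the same log2 fold change of 1.56 with an adjusted p of 0.00524, and the range over all alternatives was 0.00524 to 0.9998. A two-sided exact permutation test on log2(CPM + 0.5) gave p = 0.0286, the smallest that 4 against 4 libraries allow. This test was run on each of the 9 factors, without adjustment.

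Msx1, the relative of Msx2, lies on chromosome 5 at 37820485 to 37824583 (minus strand, 2 exons). Its levels were 277, 332, 181 and 293 CPM in Erbb3f/f replicates 1 to 4 and 319, 347, 450 and 462 CPM in Erbb3d/d replicates 1 to 4. Erbb3d/d replicate 1 lay below Erbb3f/f replicate 2, so the groups overlapped, and replicates 3 and 4 were the highest. The means were 271 ± 64.3 and 394 ± 72.0 CPM (SD, n = 4 each), with a log2 fold change of 0.54 (SE 0.19, 95% interval 0.12 to 0.97; adjusted p = 0.337 in edgeR's test; exact permutation p = 0.0571).

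The MSX factors are also made by uterine epithelium, and the epithelial markers were higher in some of the same libraries. Erbb3d/d replicates 3 and 4, with the highest Msx1 and Msx2, had the highest epithelial sums, 2535 and 2602 CPM. Erbb3f/f replicate 3, with the lowest Msx1, had the lowest sum, 1049 CPM. Other libraries went otherwise. Erbb3f/f replicate 1, with the lowest Msx2 (6.53 CPM), had a sum of 1549 CPM, above those of Erbb3f/f replicates 2 and 3. Erbb3f/f replicate 4 had a sum of 1714 CPM, above the 1580 and 1652 CPM of Erbb3d/d replicates 1 and 2, but less Msx1 and Msx2 than either. After adding the epithelial marker mean to the edgeR model, Msx1 had a log2 fold change of 0.09 (SE 0.16) and Msx2 one of 0.78 (SE 0.46). With the smooth muscle marker mean added instead, they were 0.41 (SE 0.28) and 2.19 (SE 0.54). Each covariate was fitted on the same 8 libraries as the genotype and overlaps with it, and the part of epithelial RNA in the result was not tested further.

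The 95% intervals of Msx1 and Msx2 overlap, and the levels of the pair can also be set side by side. Per kb of exon, Msx1 stood 44.9, 23.6, 18.05 and 15.8 times above Msx2 in Erbb3f/f replicates 1 to 4, and 15.1, 14.45, 7.40 and 12.5 times above it in Erbb3d/d replicates 1 to 4. The mean ratios were 25.6 ± 13.3 and 12.4 ± 3.48 (SD, n = 4 each). This ratio was formed after the values were seen, so the exact permutation test run on its log2 values (p = 0.0286) cannot serve as support. Its nearest values in the 2 groups were 15.8 and 15.1.

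Cebpb and Foxo1 had higher means in Erbb3d/d, each with overlap between the groups. Cebpb, a leucine zipper factor that relays cyclic AMP and cytokine signals, is a single-exon gene on chromosome 2 at 167688915 to 167690418. It had 149, 88.9, 225 and 160 CPM in Erbb3f/f replicates 1 to 4 and 291, 145, 255 and 298 CPM in Erbb3d/d replicates 1 to 4. Erbb3d/d replicates 1, 3 and 4 were above every Erbb3f/f library, whereas replicate 2 was below 3 of them. The means were 156 ± 55.8 and 248 ± 70.6 CPM (SD, n = 4 each), and the log2 fold change was 0.67 (SE 0.30, 95% interval -0.00035 to 1.34; adjusted p = 0.430 in edgeR's test; exact permutation p = 0.114). In GENCODE vM21 Cebpb shares 312 exonic bases with Tmem189 on the other strand, and the libraries are not directional, so reads there cannot be told apart.

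Foxo1, the forkhead factor that insulin and growth factor signals keep out of the nucleus through AKT, lies on chromosome 3 at 52268336 to 52353221 (plus strand). Its levels were 125, 143, 128 and 104 CPM in Erbb3f/f replicates 1 to 4 and 149, 133, 168 and 175 CPM in Erbb3d/d replicates 1 to 4. Erbb3d/d replicate 2 was the one library of its group below an Erbb3f/f value, that of replicate 2. The means were 125 ± 16.2 and 156 ± 18.8 CPM (SD, n = 4 each), and the log2 fold change was 0.32 (SE 0.12, 95% interval 0.06 to 0.58; adjusted p = 0.348 in edgeR's test; exact permutation p = 0.0571). The difference was 1.25-fold. With the epithelial and the smooth muscle mean added in turn, Cebpb had log2 fold changes of 0.74 (SE 0.44) and 0.81 (SE 0.50). Those of Foxo1 were 0.24 (SE 0.17) and 0.26 (SE 0.18). Immune markers summed to 1275, 940, 2372 and 1278 CPM in Erbb3f/f replicates 1 to 4. In Erbb3d/d replicates 1 to 4 they summed to 1675.5, 1313, 1637 and 1592 CPM. No immune mean was added to a model, and the part of immune RNA in the Cebpb values was not tested. An antisense transcript in GENCODE vM21 shares 674 exonic bases with Foxo1.

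Hand2, Gata2 and Zbtb16 had lower means in Erbb3d/d. Hand2, on chromosome 8 at 57320983 to 57324633, had 346, 261, 356 and 339 CPM in Erbb3f/f replicates 1 to 4 and 237, 389, 241 and 171 CPM in Erbb3d/d replicates 1 to 4. Erbb3d/d replicate 2 was the highest of all 8 libraries, and the other 3 of its group were below every Erbb3f/f library. The means were 326 ± 43.9 and 260 ± 92.1 CPM (SD, n = 4 each), and the log2 fold change was -0.33 (SE 0.22, 95% interval -0.83 to 0.17; adjusted p = 0.597 in edgeR's test; exact permutation p = 0.286). With the epithelial and the smooth muscle mean added in turn it was -0.04 (SE 0.26) and -0.03 (SE 0.30). Hand2 shares 461 exonic bases with the noncoding gene Hand2os1 on the other strand in GENCODE vM21.

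Zbtb16, on chromosome 9 at 48654297 to 48836222 (minus strand, 8 exons), varied most among the factors with lower means. It had 72.1, 55.6, 72.9 and 39.2 CPM in Erbb3f/f replicates 1 to 4, and 35.7, 66.1, 12.4 and 17.6 CPM in Erbb3d/d replicates 1 to 4. Erbb3d/d replicates 3 and 4 were the lowest libraries, replicate 1 was just under the lowest Erbb3f/f value, and replicate 2 lay inside the Erbb3f/f range. The means were 60.0 ± 15.9 and 33.0 ± 24.3 CPM (SD, n = 4 each), with a log2 fold change of -0.88 (SE 0.48, 95% interval -1.96 to 0.20; adjusted p = 0.513 in edgeR's test; exact permutation p = 0.114). Adding the epithelial mean to the model gave -0.06 (SE 0.43), and adding the smooth muscle mean gave -0.82 (SE 0.72). The part of cell makeup in this value was not tested further.

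Gata2, a zinc finger factor on chromosome 6 at 88193891 to 88207032 that is also made by endothelium, had 392, 360, 298 and 325 CPM in Erbb3f/f replicates 1 to 4. In Erbb3d/d replicates 1 to 4 it had 318, 360, 257 and 260 CPM. Only Erbb3d/d replicates 3 and 4 were under the Erbb3f/f range. The log2 fold change was -0.20 (SE 0.13, 95% interval -0.49 to 0.09; adjusted p = 0.572 in edgeR's test). The 10 endothelial markers summed to 237 to 493 CPM in Erbb3f/f and 243 to 514 CPM in Erbb3d/d. In edgeR's test 0 of the 10 had an unadjusted p under 0.05, beside 11.6% of all genes. Even so, 9 of the 10 had a positive log2 fold change, beside 7000 of the 14598 genes tested. The list median was 0.31, beside -0.01 over all genes. The exception was Cdh5 (196 ± 62.2 and 151 ± 83.4 CPM, SD, n = 4 each), named after its values were seen. Cdh5 was also the largest part of the sums, at 264 of 493 CPM in Erbb3f/f replicate 2 and 275 of 514 CPM in Erbb3d/d replicate 2. The part of endothelial RNA in the Gata2 values was not tested.

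Tcf21 and Wt1, the mesenchymal lineage factors, overlapped widely between the labels. Tcf21, on chromosome 10 at 22817281 to 22820174, ranged from 49.2 to 74.6 CPM in Erbb3f/f and from 40.7 to 75.7 CPM in Erbb3d/d, with a log2 fold change of -0.15 (SE 0.19, 95% interval -0.57 to 0.28). It was -0.33 without Erbb3d/d replicate 1, -0.032 without Erbb3f/f replicate 1 and -0.016 without Erbb3d/d replicate 3. Wt1, on chromosome 2 at 105126529 to 105173616, was the steadiest of the 9. It had 264, 244, 272 and 307 CPM in Erbb3f/f replicates 1 to 4 and 268, 249, 263 and 268 CPM in Erbb3d/d replicates 1 to 4. Its log2 fold change was -0.05 (SE 0.09), and the 95% interval of -0.25 to 0.15 bounds the difference at this depth. The 6 mesothelial markers summed to 254 CPM in Erbb3f/f replicate 3 and 195 CPM in Erbb3d/d replicate 3, and to 43.0 to 101 CPM in the other 6 libraries. In those 2 libraries Wt1 was at 272 and 263 CPM, within the range of the others.

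**Figure D2:**
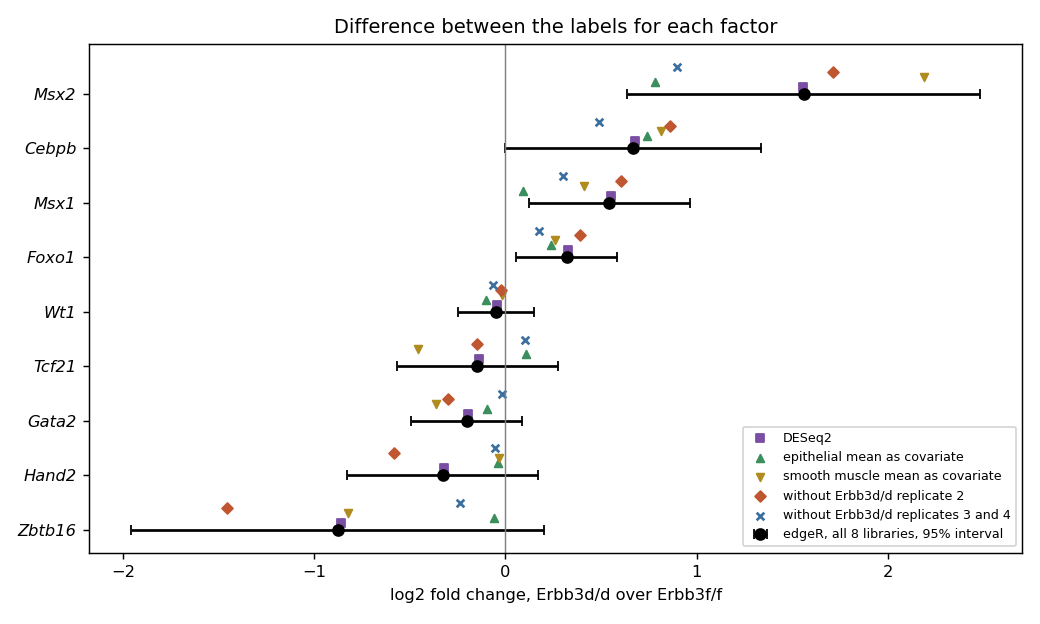
Log2 fold change of each factor, Erbb3d/d over Erbb3f/f (horizontal axis), as the edgeR estimate with its 95% interval in black and the estimates of 5 alternatives as coloured marks. The interval lies above 0 for Msx2, Msx1 and Foxo1 and spans 0 for the other 6, and the mark with the epithelial covariate for Zbtb16 sits at -0.06 instead of -0.88.

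These counts differed with the libraries included. Without Erbb3d/d replicate 2, 7 of the 9 factors reached an unadjusted p under 0.05 by edgeR, all but Tcf21 and Wt1, beside 18.9% of all genes. By its adjusted p that fit called 0 of the 9. It called 1.75% of all genes, and the smallest adjusted p among the 9 in edgeR was 0.0724 for Hand2 (log2 fold change -0.58). Zbtb16 was then at -1.46 (SE 0.37, adjusted p = 0.0834 in edgeR's test). In those 7 libraries Msx2, Cebpb and Foxo1 were separated upward and Hand2 and Zbtb16 downward, beside 16.2% of all genes in either direction. Erbb3d/d replicate 2, inside the Erbb3f/f range on the first principal component, was the library that broke the separation of Cebpb, Foxo1, Hand2 and Zbtb16. Separation is also easier with fewer libraries, so the counts without that replicate cannot be read as a result about the factors. Without Erbb3d/d replicates 3 and 4, 1 factor, Msx2, was under an unadjusted 0.05 in edgeR, beside 4.67% of all genes. Its log2 fold change was then 0.90 (SE 0.36), that of Zbtb16 was -0.24 (SE 0.32), and that of Hand2 was -0.05 (SE 0.20).

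**Figure D3:**
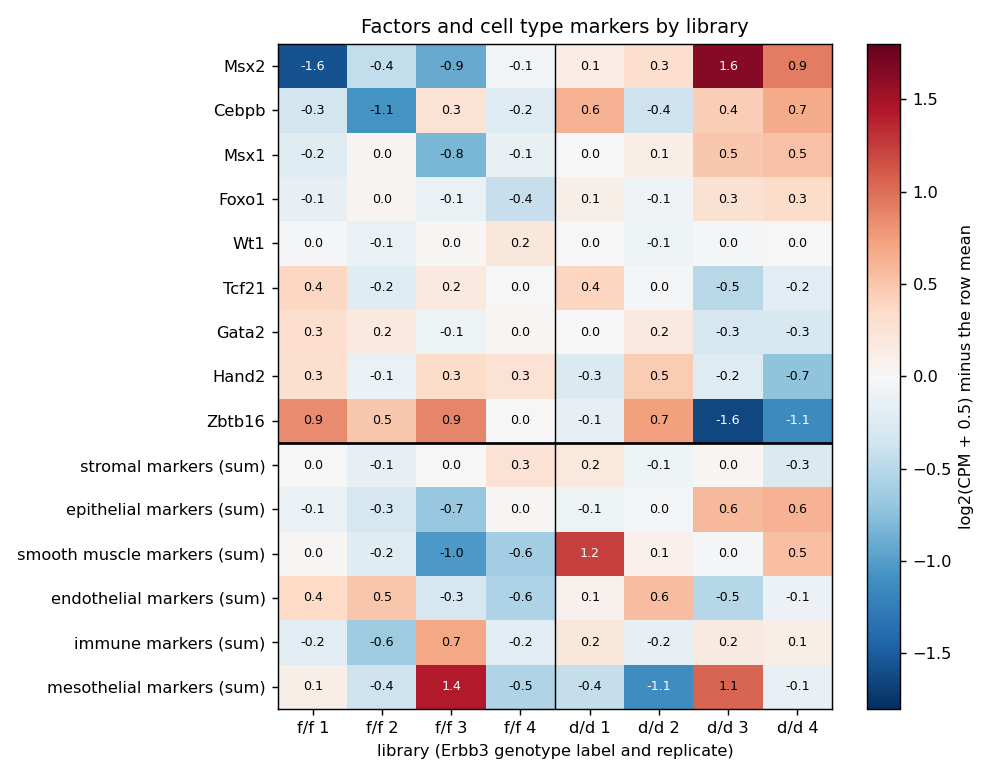
Log2(CPM + 0.5) minus the row mean in each library for the 9 factors (above the line) and for the summed CPM of each marker list (below it). Erbb3d/d replicates 3 and 4 hold the highest Msx1, Msx2 and epithelial sums and the lowest Zbtb16. Erbb3d/d replicate 2 lies inside the Erbb3f/f range for Zbtb16 and above it for Hand2.

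Levels between genes can be compared only per exon length. By mean CPM per kb of exon over the 8 libraries, the order was Cebpb, Hand2, Msx1, Gata2, Wt1, Tcf21, Foxo1, Zbtb16 and Msx2. The leading 3 were close: Cebpb exceeded Hand2 in 3 of 8 libraries and Hand2 exceeded Msx1 in 5 of 8, so their order does not hold beyond the spread. Msx1 exceeded Gata2, Gata2 exceeded Wt1 and Wt1 exceeded Tcf21 in 8 of 8 libraries each. Tcf21 exceeded Foxo1 in 7 of 8 and Foxo1 exceeded Zbtb16 in 8 of 8. Zbtb16 exceeded Msx2 in 5 of 8, and these were the lowest of the factors in Erbb3f/f, at 11.3 ± 3.02 and 3.94 ± 1.72 CPM per kb (SD, n = 4). By the mean over all 8 libraries, Hand2 was above 98.5% of the tested genes that have a length, and Msx2 was above 52.7% of them. The length used is that of all annotated exons of a gene merged, which can differ from that of the transcripts present. A wrong length shifts all 8 libraries alike, so the counts of libraries speak only to the spread between libraries.

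**Figure D4:**
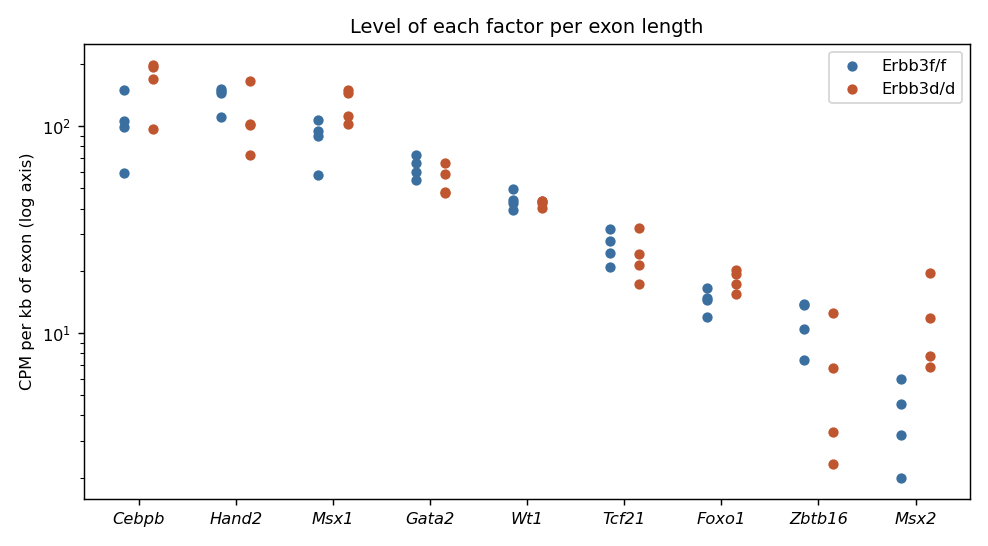
CPM per kb of merged exon (log axis) for each factor in every library, ordered by the mean over 8 libraries. The 3 leading factors overlap each other. The means of Zbtb16 and Msx2 change places between the labels, but in Erbb3d/d replicate 2 Zbtb16 stays above Msx2.

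Other genes around these factors were read from lists of relatives, binding partners, other stromal factors, and decidual or target genes. No gene of these lists passed edgeR's test after adjustment. Of the 20 tested relatives, 4 had an unadjusted p under 0.05, 3 higher and 1 lower, beside 11.6% of all genes at that p, and the list median log2 fold change was 0.11, beside -0.01 over all genes. Gata6 had 11.5 to 24.7 CPM in Erbb3f/f and 23.9 to 51.8 CPM in Erbb3d/d (log2 fold change 0.999, adjusted p = 0.279 in edgeR's test). Dlx5, a homeobox gene related to the MSX genes, had 28.3 to 54.5 and 50.1 to 90.5 CPM (0.71). Gata3 had 3.25 to 6.84 and 1.87 to 3.55 CPM (-0.94), and Tcf15 had 1.47 to 4.398 and 0 to 2.10 CPM (-1.55). None of these 4 was significant, and the groups of all 4 overlapped.

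Of the 16 partners, 3 had an unadjusted p under 0.05, 2 higher and 1 lower, beside 11.6% of all genes, with a list median of -0.01. Id4, which blocks basic helix-loop-helix factors such as Hand2 and Tcf21 from binding DNA, had 17.99 to 36.1 CPM in Erbb3f/f and 41.7 to 65.9 CPM in Erbb3d/d, without overlap (log2 fold change 0.87, adjusted p = 0.274 in edgeR's test). Zfpm2, a cofactor of GATA factors, had 8.14 to 14.5 and 13.2 to 31.4 CPM (1.06). Basp1, a corepressor of WT1, had a log2 fold change of -0.37, and Twist2 one of -0.46. None of the 4 was significant.

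Of the 22 other stromal factors, 6 had an unadjusted p under 0.05, 3 in each direction, beside 11.6% of all genes, with a list median of 0.05. Prrx1, a homeobox factor of mesenchyme, had 128 to 161 CPM in Erbb3f/f and 189 to 214 CPM in Erbb3d/d, without overlap (log2 fold change 0.45, adjusted p = 0.183 in edgeR's test). Meis1 had a log2 fold change of 0.65. Hoxa10, which is required in the stroma for decidualization, had 974 to 1130 CPM in Erbb3f/f and 482 to 1052 CPM in Erbb3d/d (log2 fold change -0.54, adjusted p = 0.383 in edgeR's test). Nr2f2, which relays progesterone and hedgehog signals in the stroma, had a log2 fold change of -0.28. None of these 4 was significant. As with Zbtb16, Erbb3d/d replicates 3 and 4 were the lowest libraries for Hoxa10, at 555 and 482 CPM.

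Of the 15 tested decidual and target genes, 4 had an unadjusted p under 0.05, 3 higher and 1 lower, beside 11.6% of all genes, with a list median of 0.05. The decidual prolactins Prl8a2 and Prl3c1 had 0 reads in all 8 libraries, and were not detectable at this depth. Bmp2, a ligand needed for decidualization, had 13.7 to 23.1 CPM in Erbb3f/f and 27.995 to 37.7 CPM in Erbb3d/d, without overlap (log2 fold change 0.78, adjusted p = 0.195 in edgeR's test). Cdkn1a, an inhibitor of cyclin-dependent kinases, had 30.7 to 57.7 and 49.5 to 116 CPM (1.05). Gja1, a connexin of the stroma, had 490 to 550 and 263 to 438 CPM, lower without overlap (log2 fold change -0.62, adjusted p = 0.225 in edgeR's test). Il15, a cytokine, had a log2 fold change of -0.33. None of these 4 was significant.

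**Figure D5:**
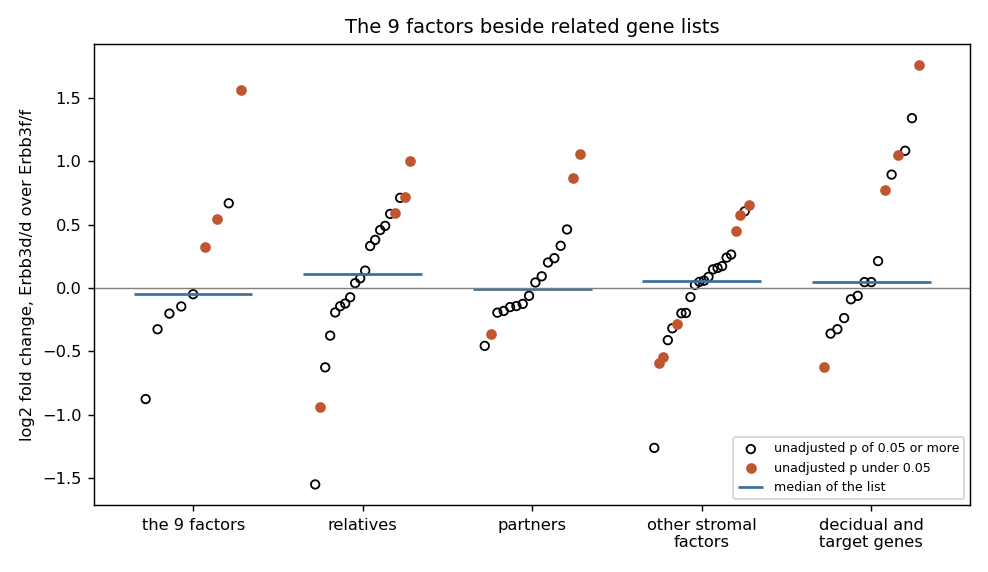
Log2 fold change, Erbb3d/d over Erbb3f/f (vertical axis), of each tested gene in the set of 9 factors and in 4 related lists, filled where the unadjusted p is under 0.05, with the list median as a line. The medians lie between -0.05 and 0.11, and single genes lie on both sides of 0 in each list.

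The genes whose levels followed a factor most closely were sought for the 3 factors that varied most over the libraries, Msx2, Zbtb16 and Cebpb (SD of log2 CPM 1.01, 0.95 and 0.60). Likeness was the root mean square difference of centred log2(CPM + 0.5) over the 8 libraries, against 14604 genes with a mean of at least 1 CPM. For Msx2 the nearest were Lgr5, a receptor for R-spondins (0.26), and Fgf18, a growth factor (0.27). Lgr5 had 2.63, 7.85, 6.60 and 13.3 CPM in Erbb3f/f replicates 1 to 4 and 16.8, 16.9, 29.5 and 22.1 CPM in Erbb3d/d replicates 1 to 4. Lgr5 was chosen for its likeness to Msx2 in these libraries, so what the 2 patterns share follows from the choice. For Zbtb16 the nearest was Gpc6, a glypican (0.19), which had 98.6 to 218 CPM in Erbb3f/f and 93.9, 192, 46.6 and 55.9 CPM in Erbb3d/d replicates 1 to 4. For Cebpb they were Junb (0.15) and Gadd45b (0.17), both immediate-early response genes. Junb had 667, 421, 971 and 712 CPM in Erbb3f/f replicates 1 to 4 and 1084, 612, 899 and 1084 CPM in Erbb3d/d replicates 1 to 4.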

How the data were processed

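Polyadenylated RNA of uterine stromal cells was sequenced in 8 non-directional libraries as pairs of 150 bp, per the labels' protocols. The authors deposited raw read counts per gene symbol, 1 table per library. HISAT2, SAMtools, HTSeq and StringTie and the builds mm10 and GRCm38 are named in the submitters' processing notes; their options and the annotation are not given in the sources used here. The 5 lines that name no gene were left out; reads assigned to genes were 27.0% to 29.1% of all entries.

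Counts were tested over all genes in R 4.3.3 with edgeR 4.0.16 (filterByExpr, TMM, robust glmQLFit, glmQLFTest, genotype as the only term), with Benjamini-Hochberg adjustment at 0.05. CPM uses the TMM-scaled library sizes. SE and 95% intervals come from the F statistic. Alternatives were DESeq2 1.42.0, other scalings and filters, the replicate block, marker covariates and left-out libraries. The test was tried on simulated counts. Exact permutation tests are two-sided over 70 assignments. Positions and exon lengths are from GENCODE vM21 on GRCm38, where 92.8% of symbols matched 1 gene.

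The factors, the gene lists and the alternatives were chosen with earlier results of these data known. Named list genes are the 2 with the smallest p in each direction of a list, and for the 3 most variable factors the 2 genes nearest in pattern, of which 1 is not reported here; Hand2os1, Tmem189, Prl8a2 and Prl3c1 were named after their values or positions were seen. No label says that replicates came from separate animals, so p-values measure only the spread between these libraries. Reads are not unique molecules, and intervals cover the spread between libraries, not other sources of error. No batch is given in the labels.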

Additional observations from a re-analysis of the deposited data

How the results depend on the processing

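No alternative changed the side of 0 for Hand2, Msx1, Msx2, Gata2, Zbtb16, Cebpb or Foxo1, but sizes did change. Log2 fold changes ran from -0.58 to -0.03 for Hand2, -0.36 to -0.02 for Gata2 and -1.46 to -0.06 for Zbtb16. They ran from 0.09 to 0.67 for Msx1, 0.78 to 2.19 for Msx2, 0.49 to 0.90 for Cebpb and 0.18 to 0.40 for Foxo1. The tally that follows counts only the side of 0 and the call, not size, and the main test called 0 factors. Over 17 alternatives for each of the 9 factors, 149 of 153 values kept both direction and call, 1 (Msx2 with DESeq2) gained a call, and 3 turned direction. Those 3 were near 0: Tcf21 was 0.11 with the epithelial mean as a covariate and 0.11 without Erbb3d/d replicates 3 and 4, and Wt1, whose values with a library left out ran from -0.088 to 0.014, was 0.014 without Erbb3f/f replicate 4. The cause was not tested.

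The number of genes called was 0 in the main edgeR test (1695 at an unadjusted p under 0.05), 258 with DESeq2 (205 higher, 53 lower), 52 with the replicate block, and 0 to 259 with a library left out, 259 being without Erbb3d/d replicate 2. The number of the 9 factors called was 0 in edgeR with or without the replicate block and 1 with DESeq2. At an unadjusted p under 0.05 it was 3 (beside 11.6% of all genes), and 6 with the replicate block (14.8%), 0 with the epithelial covariate (3.78%), 1 with the smooth muscle covariate (7.68%), 1 without Erbb3d/d replicates 3 and 4 (4.67%), and 1 to 7 with a library left out, 1 being without Erbb3d/d replicate 4 (6.97%) and 7 without Erbb3d/d replicate 2 (18.9%). The number separated was 1 (beside 5.04% of all genes), and 1 to 5 with a library left out. It was 5 without Erbb3d/d replicate 2 (16.2%), 3 without Erbb3f/f replicate 2 (Msx1, Msx2, Foxo1) and 2 without Erbb3d/d replicate 1 (Msx1, Msx2). For the other left-out libraries the share over all genes was not computed. Separation is easier with fewer libraries, so those counts cannot be read as a result about the factors.

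Same-numbered libraries shared deviations from their genotype mean with correlations of 0.24, 0.17, 0.10 and 0.15, all positive, the third just below 0.1. Erbb3f/f replicates 1, 2 and 3 and Erbb3d/d replicates 1 and 4 correlated best with their own number, and the other libraries did not. The labels do not say whether equal numbers are pairs, and this was not tested further. The main fit does not use the numbers, and the fit with the replicate block does. Under the replicate block the smallest adjusted p among the factors was 0.0895, for Cebpb. The lowest count of any factor in a library was 67 reads, for Msx2 in Erbb3f/f replicate 1.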
